A study of Homo sapiens with 30 samples.

Results

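The B-cell receptor signalling genes examined here are CD79A, CD79B, MS4A1, CD22, LYN, SYK, BLNK and PLCG2, 8 named genes of the 59661 in the annotation used. They were taken by name with their GRCh38 RefSeq positions, and every consensus peak inside a gene or within 5 kb of it was counted. This gave 29 of 21268 H3K4me3 peaks, of which 28 passed the filter on low counts, and 107 of 63580 H3K27ac peaks, of which 101 passed it. The cells were of the established line OCI-Ly1, derived from a diffuse large B-cell lymphoma. They received the vehicle DMSO at 0.01%, or JIB-04 at 150 nM or 500 nM, a compound that blocks Jumonji histone demethylases. ChIP-seq, the sequencing of DNA fragments bound by an antibody, was used for H3K4me3, the trimethylation typical of promoters in use, and for H3K27ac, the acetylation shared by promoters and enhancers in use. There were 2 libraries per mark and treatment. The labels do not say that they came from separate cultures, so the p-values measure only the spread between these libraries, which may be technical.

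The B-cell receptor is a surface immunoglobulin that signals through the chains CD79A and CD79B. Antigen binding lets the Src-family kinase LYN phosphorylate these chains, which recruit the kinase SYK. SYK then acts with the adaptor BLNK to bring in and activate the phospholipase PLCG2, which starts calcium and protein kinase C signalling. CD22 is an inhibitory co-receptor that LYN phosphorylates, and MS4A1 encodes CD20, a surface protein of B cells and the target of therapeutic antibodies.

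Total counts in peaks were 9686420 to 12327122 in the H3K4me3 libraries and 4360660 to 5410292 in the H3K27ac libraries, and the median count per peak was 263 to 328 and 21 to 24, so single H3K27ac peaks were measured with more counting error. In DMSO the 5 B-cell marker genes PAX5, EBF1, BCL6, POU2AF1 and SPIB had peaks of both marks, with summed levels of 1697 to 1742 CPM of H3K4me3 and 3559 to 3634 CPM of H3K27ac. CPM is the count scaled to the TMM-adjusted number of reads that a library has in tested peaks. Of 4 T-cell, 4 myeloid, 3 erythroid and 3 epithelial markers, 2, 1, 1 and 2 had an H3K4me3 peak, and CD3E, CSF1R, LYZ, MPO, GATA1, HBB and CDH1 had none. These other lists summed to at most 172 CPM of H3K4me3, in the erythroid list. All of that came from KLF1, whose DMSO mean of 171 CPM lay above that of the B-cell marker SPIB (146 CPM). For H3K27ac, in the same order, 3, 1, 1 and 1 of these markers had a peak, among them CD3E and LYZ. Their lists summed to at most 65.8 CPM of H3K27ac. The chi-square per degree of freedom between the 150 nM H3K4me3 libraries was 0.941, below the value of 1 that counting noise gives, against 1.12 for the DMSO pair and 1.21 for the 500 nM pair. The pair of DMSO replicate 1 and 150 nM replicate 1, which differ in treatment, also stood at 0.962. This value therefore cannot tell separate samples from parts of the same sample. The 150 nM libraries were kept as 2 samples.

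Start regions of 3 genes are printed here. They are the 250 bases before an annotated start site on the gene's strand, from RefSeq (GRCh38.p14), with CpG dinucleotides in capitals. At 500 nM JIB-04 the H3K4me3 peaks at the PLCG2, CD79A and downstream SYK starts fell. The upstream SYK start did not pass the test given below. The SYK peaks were compared only by the ratio given below, and the others were not tested against each other. SYK is shown at its upstream start (chr9:90801350-90801599) and at its downstream start (chr9:90827170-90827419), both on the plus strand. PLCG2 is at chr16:81738791-81739040 and CD79A at chr19:41877029-41877278, also on the plus strand.
SYK upstream start: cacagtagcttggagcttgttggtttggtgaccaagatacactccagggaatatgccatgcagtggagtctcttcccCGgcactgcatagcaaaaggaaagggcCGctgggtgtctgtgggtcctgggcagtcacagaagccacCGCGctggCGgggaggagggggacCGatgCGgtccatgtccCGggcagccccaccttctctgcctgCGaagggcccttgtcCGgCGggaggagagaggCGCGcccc
SYK downstream start: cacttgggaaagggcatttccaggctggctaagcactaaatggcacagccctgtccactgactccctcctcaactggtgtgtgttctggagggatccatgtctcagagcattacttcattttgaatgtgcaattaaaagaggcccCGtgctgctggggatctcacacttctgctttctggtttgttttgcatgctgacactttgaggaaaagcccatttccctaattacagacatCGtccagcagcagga
PLCG2 start: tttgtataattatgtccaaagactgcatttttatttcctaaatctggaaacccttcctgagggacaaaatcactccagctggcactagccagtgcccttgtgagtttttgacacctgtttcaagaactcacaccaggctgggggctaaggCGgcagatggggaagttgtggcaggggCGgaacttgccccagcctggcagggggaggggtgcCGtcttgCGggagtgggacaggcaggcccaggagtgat
CD79A start: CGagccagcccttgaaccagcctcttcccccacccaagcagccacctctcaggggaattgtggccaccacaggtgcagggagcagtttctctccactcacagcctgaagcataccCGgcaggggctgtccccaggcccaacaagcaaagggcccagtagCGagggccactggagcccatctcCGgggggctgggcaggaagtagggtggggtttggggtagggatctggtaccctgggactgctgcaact
The SYK upstream window had 64.0% G+C and 13 CpG, and the downstream window 49.2% and 2 CpG. PLCG2 had 54.4% and 4 CpG, and CD79A 64.0% and 4 CpG. Across 35116 windows of the same length the medians were 58.0% and 11 CpG. The capitals were chosen after these compositions had been seen, and with so few windows they are a description only.

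Motifs were searched on both strands, 9 in all. The octamer ATTTGCAT and a palindromic motif of the factor EBF had no match in these 4 windows. The ETS core CCGGAA had none, nor had the TATA motif TATAAA. The same held for the motif CCAAT and for a PAX5-like motif spelled GCGTGAC. The E-box CAGGTG, found in 17.5% of all windows, matched in CD79A from base -181 and in PLCG2 from base -139, counted from the start site. The PU.1 core GAGGAA, found in 23.6%, matched in the SYK downstream window from base -47, and the GC box GGGCGG, found in 42.6%, matched in PLCG2 from base -76. The SYK upstream window printed here held no match. A further SYK start lies in the same H3K4me3 peak, and its window (chr9:90801569-90801818) had 75.6% G+C and 32 CpG. It is not printed because it reaches past the first start site. It held 3 GC boxes (from bases -148, -114 and -104), 2 PU.1 cores (-82 and -32) and an E-box (-204). The other shares were 1.63% for the octamer, 1.06% for EBF, 32.0% for the CCAAT motif, 14.5% for the ETS core, 10.7% for the TATA motif and 2.2% for the PAX5-like motif. A match is not a binding site, and a missing match says only that these letters are not in the window.

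The first question was how H3K4me3 at these genes differed between 500 nM JIB-04 and DMSO. H3K4me3 fell at the start peaks of CD79A, CD79B, CD22, BLNK and PLCG2 and at the downstream start of SYK, with changes of -10.3% to -28.3%. MS4A1, LYN and the upstream start of SYK did not pass the test. The rise with the largest fold was inside PLCG2, where a weak peak stood 10.6-fold higher at 500 nM. Of the 28 tested peaks, 13 were called by edgeR's quasi-likelihood test at an adjusted p under 0.05, 3 higher and 10 lower, where 39.4% of all 20402 tested peaks were called, 20.7% higher and 18.7% lower. Called lower were thus 35.7% of the peaks at these genes, and their median log2 fold change was -0.12 against -0.0063 over all peaks. Strong peaks fell more often over the whole table. In the highest of 5 groups of equal size by abundance, 34.2% of all peaks were called lower and 4.80% higher, and 4 of the 8 peaks of these genes in it were lower. In the next group 22.7% were lower and 9.22% higher, and 3 of the 4 peaks of these genes were lower, the starts of BLNK and PLCG2 and the downstream start of SYK. The other 16 peaks lay in the 3 weaker groups, with 3 lower and 3 higher. In these groups, from the weakest up, 4.58%, 12.8% and 19.3% of all peaks were called lower. Called higher were 26.1%, 34.1% and 29.1%. The DESeq2 Wald test called 8 of the 28 peaks, 1 higher and 7 lower. Over all 20402 peaks it called 3479, 1999 higher and 1480 lower. Scaling by the total count in peaks gave 4 higher and 8 lower, where all peaks were 4767 higher and 2791 lower in place of 4215 and 3819.

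CD79A and CD79B, the signalling chains of the receptor, carried strong H3K4me3. The peak at chr17:63928498-63934146 covers all of CD79B and is 5649 bp long. It stood at 267 and 269 CPM with DMSO, 266 and 263 with 150 nM, and 207 and 216 with 500 nM. Both 500 nM libraries lay below the other 4. Separation of the 500 nM from the DMSO libraries was common in this mark. It held for 68.0% of all 20402 tested H3K4me3 peaks and for 64.3% of the 28 peaks of these genes. The log2 fold change against DMSO was -0.34 with an SE of 0.030 (edgeR adjusted p = 2.13e-14). The start peak of CD79A (chr19:41876746-41880042) stood at 116 and 116 CPM with DMSO, 116 and 116 with 150 nM, and 103 and 101 with 500 nM, a log2 fold change of -0.18 with an SE of 0.040 (edgeR adjusted p = 1.96e-04). The 500 nM libraries again lay below the rest. A second peak within 5 kb of CD79A (chr19:41882312-41885290) overlaps the neighbouring gene ARHGEF1 and did not pass. It stood at 118 and 117 CPM in DMSO and 123 and 122 at 500 nM (edgeR adjusted p = 0.213).

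The B-cell surface proteins MS4A1 and CD22 differed in their values. The MS4A1 peak (chr11:60455260-60460004) had 128 and 116 CPM with DMSO, 127 and 123 with 150 nM, and 128 and 119 with 500 nM. The groups overlapped, and the log2 fold change was 0.02 with an approximate 95% interval of -0.07 to 0.10 (edgeR adjusted p = 0.792). The CD22 start peak (chr19:35328591-35333702) had 116 and 109 CPM with DMSO, 119 and 117 with 150 nM, and 98.3 and 101 with 500 nM. Its 500 nM libraries lay below the other 4, with a log2 fold change of -0.18 and an SE of 0.042 (edgeR adjusted p = 4.28e-04). The DESeq2 adjusted p for this peak was 0.0682. Whether MS4A1 and CD22 differed from each other was not tested.

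**Figure D1:**
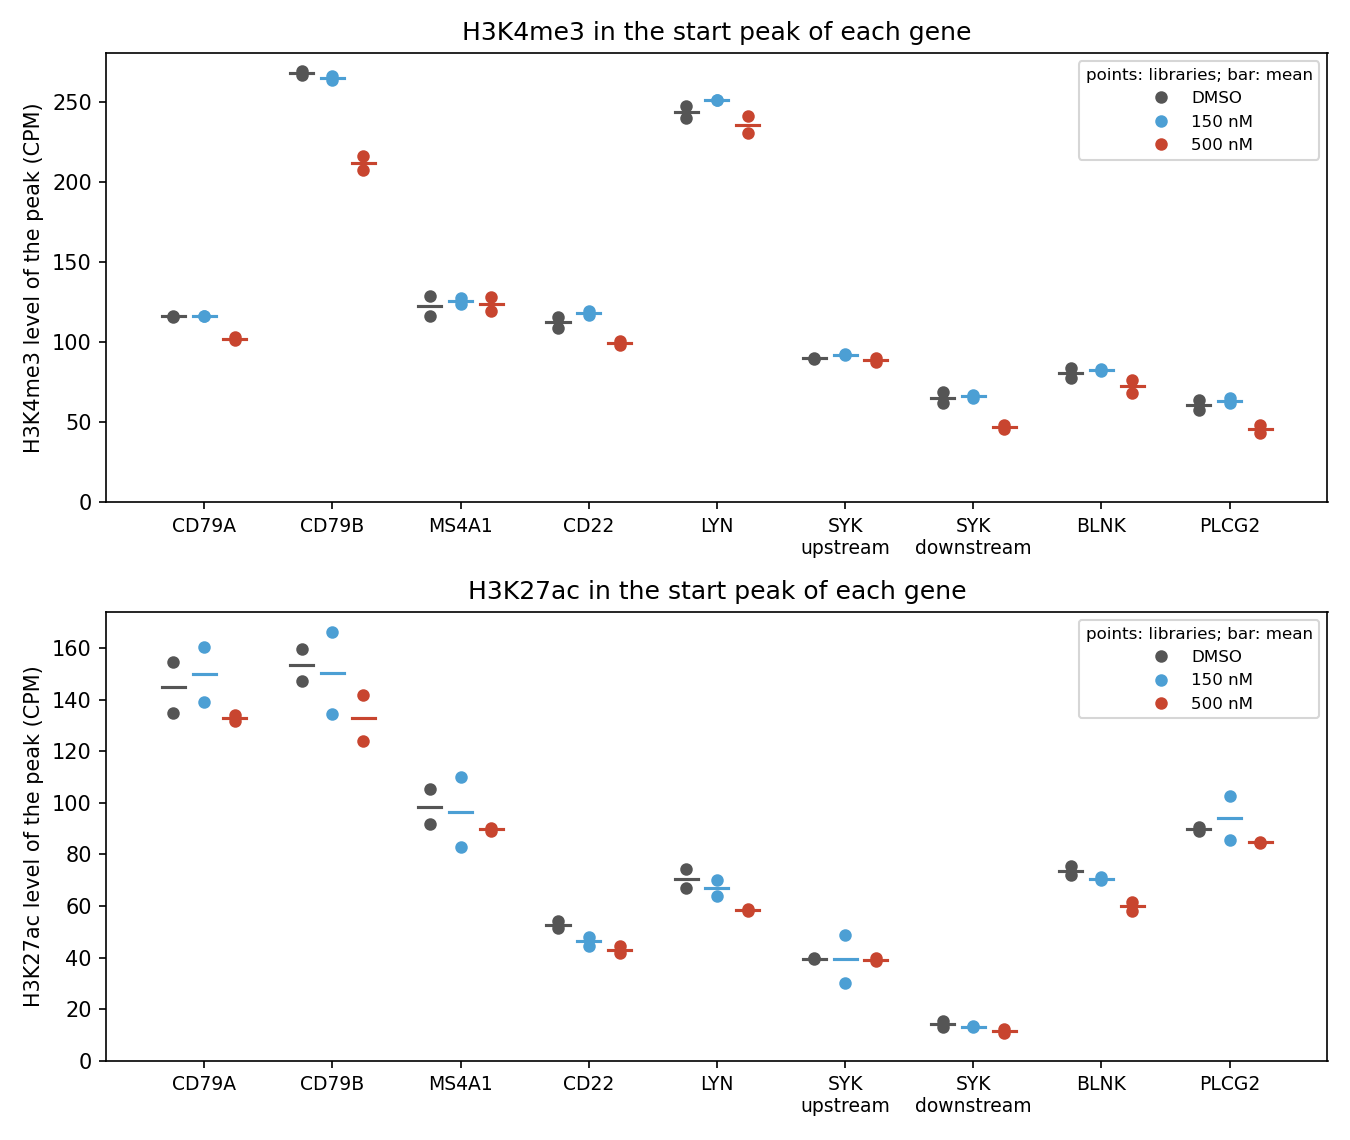
CPM (TMM-scaled counts) of the start peak of each gene for H3K4me3 (top) and H3K27ac (bottom); for CD79B, MS4A1 and LYN it is the strongest peak at an end of the gene. Points are the 2 libraries per group and bars their mean; in CD79B the 500 nM H3K4me3 libraries stand at 207 and 216 against 267 and 269 in DMSO.

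The kinases LYN and SYK act next to the receptor. The LYN peak at the lower end of the gene (chr8:55878097-55882525) had 239 and 247 CPM with DMSO, 251 and 251 with 150 nM, and 230 and 241 with 500 nM. The DMSO and 500 nM libraries overlapped, with a log2 fold change of -0.05 and an approximate 95% interval of -0.11 to 0.01 (edgeR adjusted p = 0.224). The other 3 LYN peaks, all inside the gene and at most 8.01 CPM on average in DMSO, did not pass either. SYK has annotated starts in 2 peaks, centred 1.73 kb and 27.1 kb into the gene, of which the downstream one was called.

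The upstream SYK peak (chr9:90801103-90805552) holds the CpG-richer start printed above. It stood at 89.5 and 89.9 CPM with DMSO, 92.0 and 92.2 with 150 nM, and 89.8 and 87.5 with 500 nM, a log2 fold change of -0.01 with an approximate 95% interval of -0.10 to 0.07 (edgeR adjusted p = 0.827). The downstream peak (chr9:90827056-90830277) stood at 68.8 and 61.7 CPM with DMSO, 66.8 and 65.1 with 150 nM, and 48.2 and 45.7 with 500 nM. Here the 500 nM libraries lay below the other 4, and the log2 fold change was -0.48 with an SE of 0.058 (edgeR adjusted p = 4.79e-10). The ratio of the downstream to the upstream peak within each library was 0.769 and 0.686 with DMSO, 0.726 and 0.706 with 150 nM, and 0.537 and 0.522 with 500 nM. The exact two-sided permutation test of this ratio, 500 nM against DMSO with n = 2 each, gave p = 0.333, the smallest that this design allows.

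BLNK, the adaptor that links SYK to PLCG2, had a single H3K4me3 peak at its start (chr10:96268036-96273648). It stood at 83.7 and 77.8 CPM with DMSO, 83.0 and 81.9 with 150 nM, and 76.5 and 68.0 with 500 nM. The log2 fold change of -0.16 had an SE of 0.050 (edgeR adjusted p = 0.0101). This call rested on single libraries, since without DMSO replicate 1 the log2 fold change was -0.10 (edgeR adjusted p = 0.220) and without 500 nM replicate 2 it was -0.08 (edgeR adjusted p = 0.263). The DESeq2 adjusted p was 0.223.

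PLCG2 held 16 of the 29 H3K4me3 peaks, and they moved in both directions. At 500 nM 5 were called lower, 3 were called higher and 8 were not called. The start peak (chr16:81737853-81741347), which also overlaps LOC105369213, had 63.6 and 57.8 CPM with DMSO, 64.9 and 61.9 with 150 nM, and 48.3 and 43.0 with 500 nM, a log2 fold change of -0.41 with an SE of 0.060 (edgeR adjusted p = 9.03e-08). The strongest PLCG2 peak, 7278 bp long and centred 48.0 kb inside the gene (chr16:81783426-81790703), had 164 and 157 CPM with DMSO, 164 and 161 with 150 nM, and 112 and 102 with 500 nM. It fell by 0.58 on the log2 scale (SE 0.040, edgeR adjusted p = 9.55e-19). In both peaks the 500 nM libraries lay below all others. The neighbouring peak 41.3 kb into the gene (chr16:81778773-81781916) did not pass, with 132 and 139 CPM in DMSO and 134 and 137 at 500 nM.

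The weak PLCG2 peak at chr16:81841738-81843324, 103 kb into the gene, was the exception in size. It held 19 and 21 reads with DMSO, 19 and 20 with 150 nM, and 220 and 189 with 500 nM, which is 1.55 and 2.06 CPM, 1.70 and 1.86 CPM, and 18.7 and 19.3 CPM. Both 500 nM libraries lay far above the other 4, which overlapped. The log2 fold change against DMSO was 3.40 with an SE of 0.19 (edgeR adjusted p = 9.74e-23), rank 11 from the top among all 20402 tested peaks. Its level relative to the PLCG2 start peak was 0.0244 and 0.0357 with DMSO, 0.0262 and 0.0301 with 150 nM, and 0.387 and 0.449 with 500 nM. It stayed under the start peak in every library.

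The remaining called PLCG2 peaks were weaker in evidence or in size. The peak 88.6 kb into the gene (chr16:81827367-81827895) fell by 1.73 on the log2 scale (SE 0.37, edgeR adjusted p = 1.45e-04), from 41 and 25 reads in DMSO and 24 and 38 at 150 nM to 13 and 6 at 500 nM. The peak 92.6 kb in, which also overlaps LOC124903731, fell by 0.49 (edgeR adjusted p = 2.24e-06). The peak 125 kb in rose by 1.29 from 5 and 8 reads in DMSO, with 11 and 12 reads at 150 nM and then 18 and 13 reads at 500 nM. The peak beyond the gene end rose by 0.64, from 42 and 30 reads to 53 and 55, with 36 and 45 at 150 nM. The edgeR adjusted p was 0.0234 for the first of these rises and 0.0226 for the second. The first was lost without DMSO replicate 1 (log2 fold change 0.86, edgeR adjusted p = 0.312) and without 500 nM replicate 1 (1.18, edgeR adjusted p = 0.136). The second was lost without DMSO replicate 2 (0.54, edgeR adjusted p = 0.122) and without 500 nM replicate 2 (0.49, edgeR adjusted p = 0.169). Loess offsets on abundance and DESeq2 (adjusted p = 0.24 and 0.218) also ended both calls.

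The peak 79.9 kb into PLCG2 (chr16:81818256-81819595) had its highest values at 150 nM. It stood at 6.12 and 5.60 CPM with DMSO, 8.87 and 8.75 with 150 nM, and 4.17 and 4.19 with 500 nM. The fall against DMSO was 0.49 on the log2 scale (edgeR adjusted p = 0.0461), and 8 of the 14 alternatives ended this call, among them leaving out any 1 of the DMSO or 500 nM libraries, which gave log2 fold changes of -0.43 to -0.55 and edgeR adjusted p of 0.0599 to 0.205. Against 150 nM it fell by 1.07 (edgeR adjusted p = 3.45e-06).

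**Figure D2:**
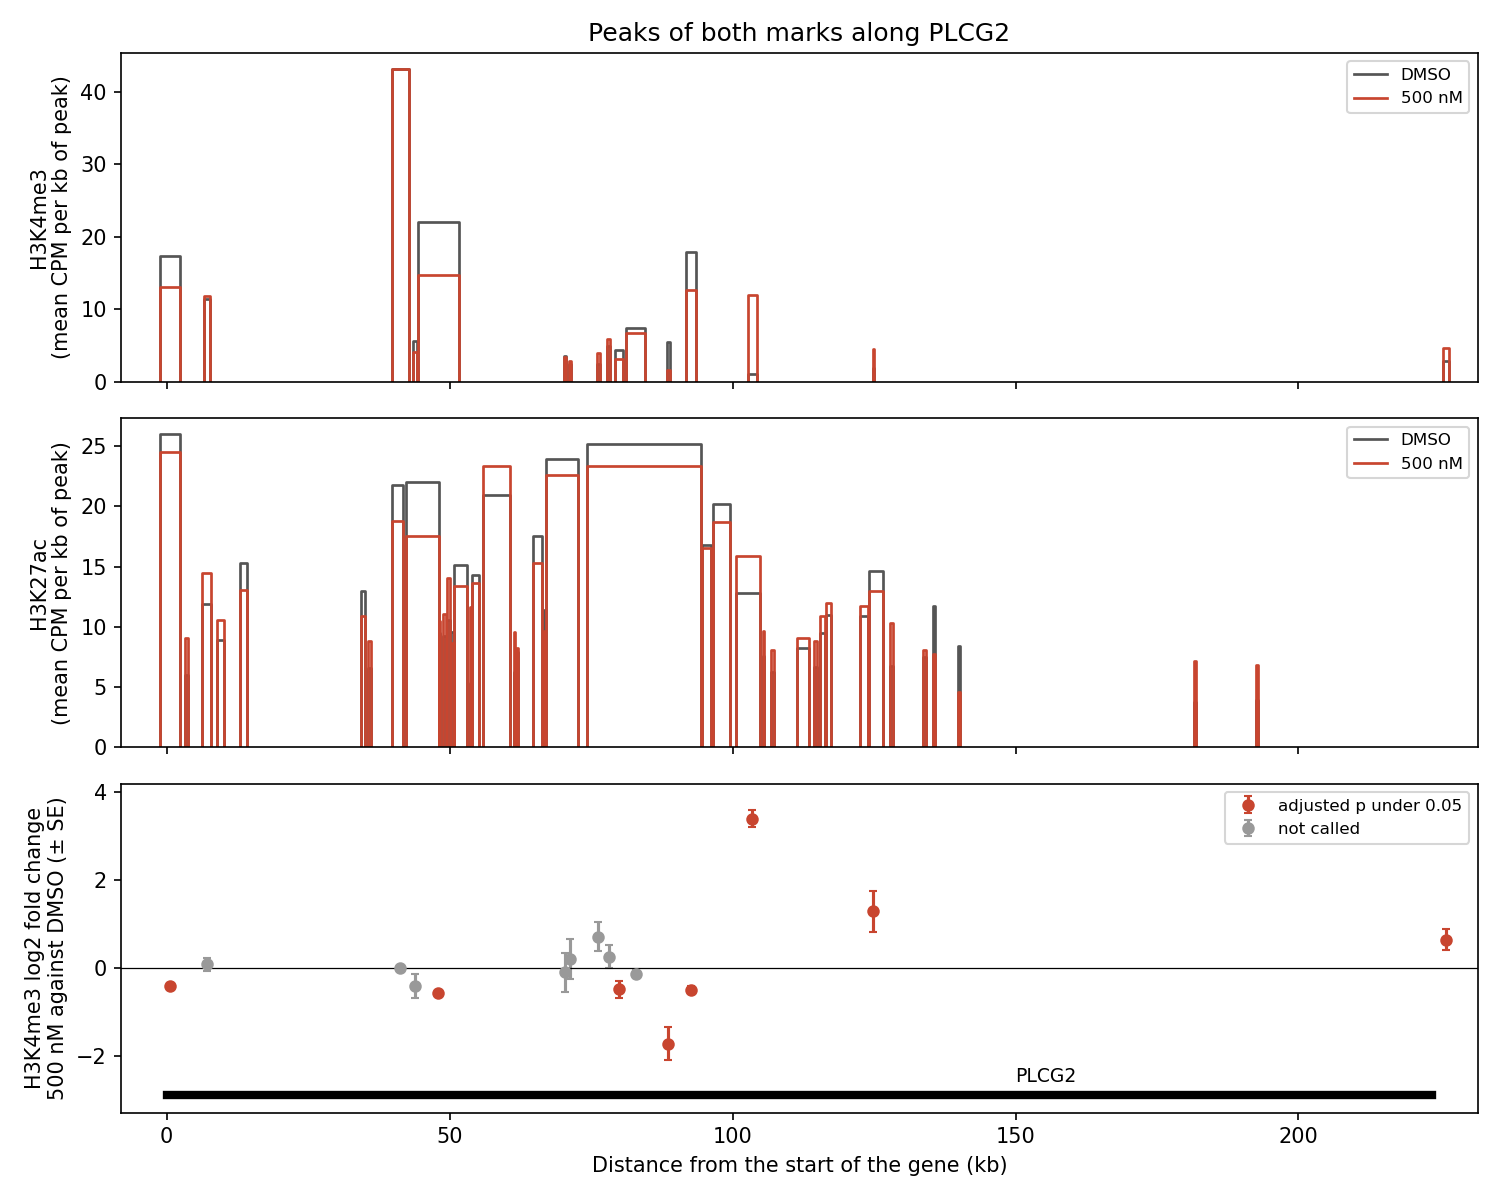
Peaks along PLCG2 by distance from the gene start (kb), with mean CPM per kb of peak over 2 libraries for H3K4me3 (top) and H3K27ac (middle) in DMSO and at 500 nM, and the H3K4me3 log2 fold change with its SE (bottom). The point at 103 kb stands at 3.40, and the start peak at -0.41.

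The second question was whether 150 nM differed from DMSO. No H3K4me3 peak at these genes was called, and none was called anywhere in the table (background 0.0%) by edgeR or by DESeq2. At an unadjusted p under 0.05 edgeR gave 2 of the 28 peaks, beside 4.66% of all peaks. Both were PLCG2 peaks, the one 79.9 kb into the gene (log2 fold change 0.58) and one 71.2 kb into it (0.95).

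The third question was whether the doses differed. Against 150 nM, 14 of 28 H3K4me3 peaks were called at 500 nM, 2 higher and 12 lower, where 39.2% of all peaks were called, 20.5% higher and 18.6% lower. This comparison shares the 500 nM libraries with the one against DMSO, so its calls are not independent of it. The log2 fold changes against 150 nM were -0.32 for CD79B, -0.19 for the CD79A start, -0.25 for CD22, -0.49 for the downstream SYK start, -0.18 for BLNK and -0.47 for the PLCG2 start. The PLCG2 peak at 103 kb stood at 3.41. LYN, at -0.09 (edgeR adjusted p = 0.0109), and the peak beside CD79A over ARHGEF1, at 0.11 (edgeR adjusted p = 0.0242), passed here and not against DMSO. The LYN call was lost without 150 nM replicate 1, 150 nM replicate 2 or 500 nM replicate 1 (log2 fold changes -0.10, -0.09 and -0.06), and with loess offsets the value was -0.01. The ARHGEF1 call was lost on leaving out any 1 of the 150 nM or 500 nM libraries, at 0.10 to 0.12. BLNK was lost without 500 nM replicate 2, at -0.11. DESeq2 called 10 of the 28 peaks, without BLNK (adjusted p = 0.127), LYN (0.197), the ARHGEF1 peak (0.276) and the PLCG2 peak 43.9 kb into the gene (0.275). Over all 20402 peaks it called 3473, 1925 higher and 1548 lower. With only 1 of the 150 nM libraries, 12 of the peaks were called, whichever library was kept.

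For H3K27ac the named genes were covered by more and weaker peaks, and no change against DMSO was called. Of the 101 tested peaks edgeR called 0 at 500 nM against DMSO, where 0.923% of all 54037 tested peaks were called. DESeq2 also called 0, with 114 over all peaks. At an unadjusted p under 0.05 edgeR gave 11 peaks (10.9%), beside 11.5% of all peaks. At 150 nM edgeR and DESeq2 called 0 (background 0.00185%), with 5 peaks at an unadjusted p under 0.05 beside 3.94% of all peaks. Most start peaks had lower means at 500 nM than in DMSO without passing the test. The median log2 fold change at 500 nM was -0.05 over the 101 peaks and -0.0040 over all peaks. The DMSO and 500 nM libraries did not overlap in 54 of the 101 peaks (53.5%), beside 44.6% of all tested peaks.

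The values of the strongest H3K27ac peak of each gene show the size of the spread. CD79A had 135 and 154 CPM with DMSO, 139 and 160 with 150 nM, and 134 and 132 with 500 nM. CD79B had 147 and 160, 134 and 166, and 124 and 142 CPM in the same order. The 150 nM libraries differed most from each other, and the chi-square per degree of freedom of that pair was 2.26 over all H3K27ac peaks, against 1.37 in DMSO and 1.29 at 500 nM. MS4A1 had 91.7 and 105 CPM with DMSO, 110 and 82.7 with 150 nM, and 90.4 and 89.2 with 500 nM. CD22 had 54.0 and 51.3 CPM, then 48.0 and 44.7, then 41.6 and 44.6, a log2 fold change of -0.29 (SE 0.13, edgeR adjusted p = 0.345). The 500 nM libraries lay below the DMSO libraries in these 4 genes.

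LYN had 67.1 and 74.2 CPM at its lower end with DMSO, 63.7 and 70.1 with 150 nM, and 59.0 and 58.1 with 500 nM. SYK at its upstream start had 40.0 and 39.3 CPM, then 48.9 and 30.3, then 38.6 and 39.9. BLNK had 75.4 and 72.0 CPM, then 71.2 and 69.9, then 61.6 and 58.1, a log2 fold change of -0.30 (SE 0.11, edgeR adjusted p = 0.242). SYK overlapped between DMSO and 500 nM, while LYN and BLNK did not. PLCG2 had 40 H3K27ac peaks, among them a domain of 20187 bp (chr16:81813316-81833502) with 479 and 538 CPM with DMSO, 477 and 532 with 150 nM, and 477 and 466 with 500 nM. The PLCG2 start peak had 90.6 and 89.0 CPM with DMSO, 85.6 and 103 with 150 nM, and 84.6 and 84.7 with 500 nM (log2 fold change -0.09, edgeR adjusted p = 0.819). The downstream SYK start lay in a weaker H3K27ac peak of 15.6 and 13.0 CPM with DMSO, 13.4 and 13.0 with 150 nM, and 12.2 and 10.95 with 500 nM.

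Between 500 nM and 150 nM, 2 of the 101 H3K27ac peaks were called, both higher at 500 nM, where 1.27% of all peaks were called and 1.09% were higher. At an unadjusted p under 0.05 edgeR gave 12 peaks, beside 10.2% of all peaks, and DESeq2 called 0 (196 over all peaks). The first lies 93.5 kb into LYN (chr8:55972009-55974717) and had 51.3 and 49.9 CPM with DMSO, 44.8 and 41.5 with 150 nM, and 60.5 and 63.6 with 500 nM. Its log2 fold change against 150 nM was 0.52 with an SE of 0.12 (edgeR adjusted p = 0.00955). The second (chr16:81839718-81843970) overlaps the PLCG2 peak at 103 kb whose H3K4me3 rose. It had 51.3 and 58.0 CPM with DMSO, 49.3 and 49.8 with 150 nM, and 67.6 and 67.5 with 500 nM. Its log2 fold change was 0.45 against 150 nM (SE 0.12, edgeR adjusted p = 0.0346) and 0.30 against DMSO (edgeR adjusted p = 0.261). Both calls were lost without 500 nM replicate 1 or without 500 nM replicate 2, which left log2 fold changes of 0.56 and 0.48 for LYN and 0.45 and 0.45 for PLCG2. The PLCG2 call was also lost without DMSO replicate 1 (0.44) or without DMSO replicate 2 (0.44).

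The marks were set beside each other at the same places. Of the 29 H3K4me3 peaks, 27 overlapped an H3K27ac peak of these genes. In 26 pairs both peaks were tested, and at 500 nM against DMSO 15 pairs had both log2 fold changes below 0, 2 had both above 0, and 9 differed in sign. Several of the PLCG2 peaks share the 20187 bp H3K27ac domain, so these pairs are not independent. The same count over all overlapping peaks is not given, so agreement particular to these genes is not shown. At the PLCG2 peak at 103 kb the log2 fold change was 3.40 for H3K4me3 and 0.30 for H3K27ac. At the PLCG2 start it was -0.41 and -0.09, at CD79B -0.34 and -0.21, and at BLNK -0.16 and -0.30. No test of one mark against the other was made.

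**Figure D3:**
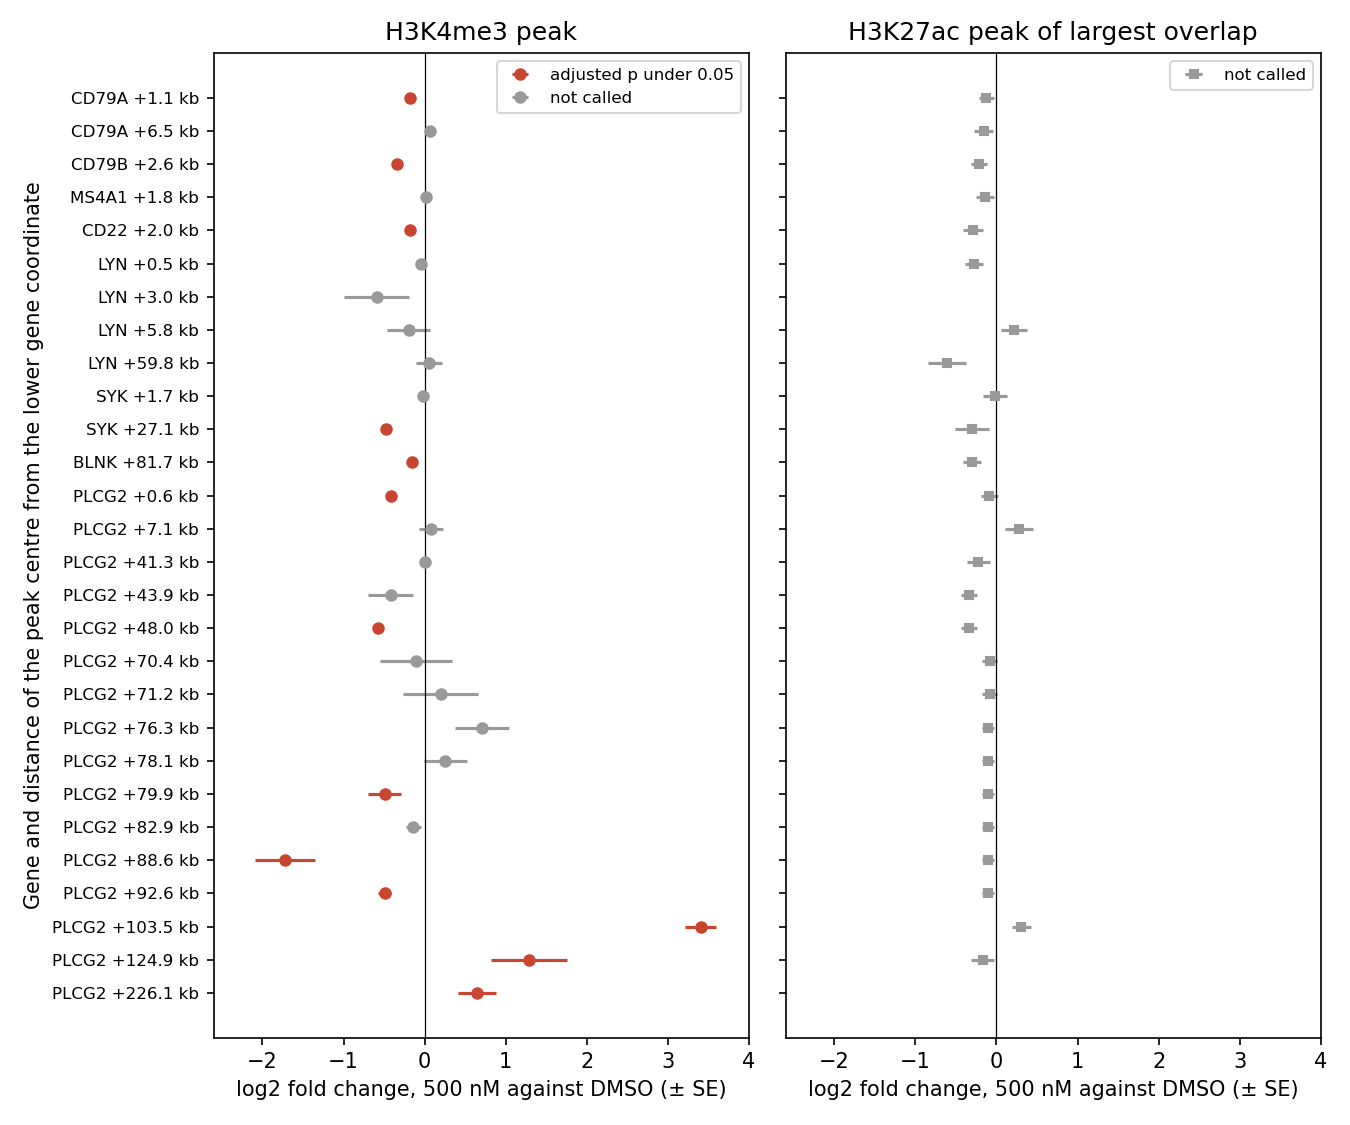
Log2 fold change with SE, 500 nM against DMSO, of the 28 tested H3K4me3 peaks (left) and of the H3K27ac peak that overlaps each most (right), ordered by gene and by distance of the peak centre from the lower gene coordinate. The H3K4me3 values span -1.73 to 3.40, and no H3K27ac value shown was called.

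The counts of all peaks in a gene and its 5 kb flanks were then summed and tested over all genes with peaks. For H3K4me3 at 500 nM against DMSO, 5 of the 8 genes were called, all lower, where 42.2% of 22108 genes were called and 22.1% were lower. The median was -0.17 over the 8 genes and -0.02 over all genes. CD79B fell by 0.34, PLCG2 by 0.22, SYK by 0.19, CD22 by 0.18 and BLNK by 0.16. The sums of CD79A (-0.05), LYN (-0.05) and MS4A1 (0.02) did not pass. The CD79A sum includes the ARHGEF1 peak, and the PLCG2 sum joins peaks that rose and peaks that fell. DESeq2 called 3 of the 8 genes, without CD22 and BLNK, whose adjusted p were 0.0544 and 0.191. Over all 22108 genes it called 4287, 2437 higher and 1850 lower. Against 150 nM 6 genes were lower (background 41.6%, lower 20.9%), the same 5 and LYN at -0.10. DESeq2 called 4 of the 8, without LYN (adjusted p = 0.127) and BLNK (adjusted p = 0.107). Over all genes it called 4316, 2414 higher and 1902 lower. The LYN call was lost in 5 further alternatives, without either 150 nM library (-0.10 in both), without 500 nM replicate 1 (-0.07), with scaling by the total count in peaks (-0.07) and with loess offsets (-0.03). BLNK was also lost without 500 nM replicate 2 (-0.11). At 150 nM against DMSO edgeR and DESeq2 called 0 (background 0.0%), and at an unadjusted p under 0.05 edgeR gave 0 genes, beside 4.4% of all genes.

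For H3K27ac edgeR called 0 of the 8 sums in each of the 3 comparisons, as did DESeq2, where 1.77% (500 nM against DMSO), 0.0% (150 nM against DMSO) and 1.66% (500 nM against 150 nM) of the tested genes were called. Over all genes DESeq2 called 98, 0 and 134 in the same order. At an unadjusted p under 0.05 edgeR gave 1, 0 and 1 genes in these comparisons, beside 15.8%, 3.58% and 11.5% of all genes. Values at 500 nM against DMSO ran from -0.27 for BLNK to 0.05 for LYN. Their median was -0.09, against 0.06 over all genes. Below 0 were 7 of the 8, beside 37.6% of all genes, and this difference was not tested. Per kb of peak, H3K4me3 sums in DMSO were highest for CD79B (47.4 CPM), LYN (40.3) and CD79A (37.2), then MS4A1 (25.8), CD22 (22.0), SYK (19.5), PLCG2 (16.4) and BLNK (14.4). For H3K27ac the order began with CD79B (24.1 CPM per kb), CD79A (20.9) and PLCG2 (18.8) and ended with BLNK (10.8) and SYK (10.3). These levels are descriptions of the DMSO means, and neighbours in the order were not tested against each other. The CD79A levels are partly those of neighbouring genes. The ARHGEF1 peak held 117 of the 233 CPM of its H3K4me3 sum, and 1 of its 6 H3K27ac peaks overlaps CD79A itself.

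The other genes of the pathway were taken from a list, of which 33 are reported. Of these, 3 rose and 16 fell in H3K4me3 at 500 nM against DMSO, and 14 did not pass, where 42.2% of all genes were called, 20.0% higher and 22.1% lower. The median log2 fold change was -0.10 over the list and -0.02 over all genes. DESeq2 called 3 higher and 9 lower, where all genes were 2437 higher and 1850 lower. Scaling by the total count in peaks gave 7 higher and 13 lower, where all genes were 5193 higher and 3163 lower in place of 4431 and 4893. Loess offsets on abundance gave 6 higher and 12 lower, where all genes were 4132 higher and 3569 lower. The highest rise was in CR2, a complement receptor of B cells, from 7.40 ± 0.649 to 17.3 ± 1.58 CPM (SD, n = 2 libraries), a log2 fold change of 1.22 (SE 0.13, edgeR adjusted p = 3.44e-10). VAV2, a guanine nucleotide exchange factor, rose by 0.46 and the Src-family kinase FYN by 0.29. CSK, the kinase that restrains Src-family kinases, fell by 0.48 from 267 ± 5.07 to 192 ± 8.58 CPM. NFATC1, a transcription factor downstream of calcium, fell by 0.43, the GTPase RAC2 by 0.36 and the adaptor DAPP1 by 0.36. BTK, the kinase that activates PLCG2, did not pass. Against 150 nM 5 rose and 18 fell, where 41.6% of all genes were called, 20.7% higher and 20.9% lower. DESeq2 called 3 higher and 12 lower there, where all genes were 2414 higher and 1902 lower. At 150 nM against DMSO edgeR and DESeq2 called 0, and 1 of the 33 had an unadjusted p under 0.05, beside 4.4% of all genes. For H3K27ac 31 genes were tested, and 2 rose at 500 nM against DMSO, the adaptor LAT2 by 0.61 and the tetraspanin CD81 by 0.34, while none fell. Of all genes 1.77% were called, 1.37% higher and 0.4% lower. The count over all genes depended on the model, with 390 called here, 98 by DESeq2 and 1973 with only the 4 libraries of the contrast. LAT2 was called in all 15 alternatives, while 7 of 15 ended the CD81 call, among them DESeq2 (adjusted p = 0.181) and leaving out any 1 of the DMSO or 500 nM libraries, at 0.27 to 0.41. Against 150 nM LAT2 rose (0.54), where 1.66% of all genes were called and 1.42% were higher, and this call was lost without 500 nM replicate 2 (0.49, edgeR adjusted p = 0.0579).

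**Figure D4:**
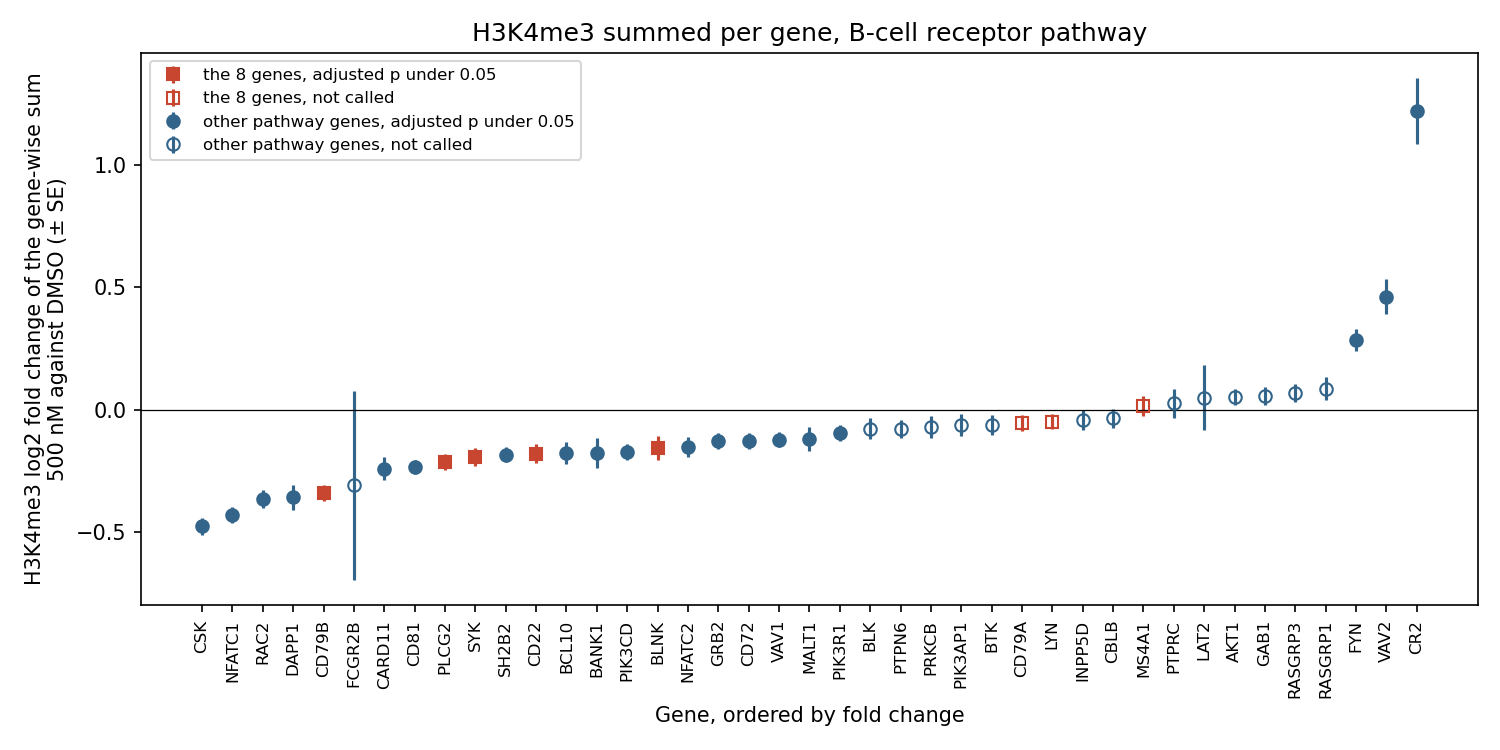
H3K4me3 log2 fold change with SE of the gene-wise sums, 500 nM against DMSO, for the 8 genes (squares) and 33 other pathway genes (circles), filled where the adjusted p is under 0.05. CSK stands lowest at -0.48 and CR2 highest at 1.22.

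For the genes named next, the gene whose 12 library values were most alike is given, found over both marks, with each mark centred on its own mean. Pearson's r over the 12 libraries was 0.988 for CD79B with RAC2, another gene of the pathway list. It was 0.993 for PLCG2 with LOC124905033, 0.971 for SYK with SOX2-OT, 0.962 for BLNK with TRL-AAG1-3, 0.935 for MS4A1 with TRF-GAA1-2, 0.923 for CD22 with SLC2A12 and 0.901 for LYN with GADD45A. Each is the highest of about 19080 genes compared, and was selected as such, and the libraries of a mark share their scaling. These values are a description, with no test.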

How the data were processed

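Of the 30 libraries of the series, the 12 of H3K4me3 and H3K27ac were used, and the 18 others were not used here. The deposited tables hold raw read counts per consensus peak, made by the authors with featureCounts 2.0.1, per the file headers. The headers give no strand use and a fraction of 0.2 of a read inside the peak. They record the option for paired reads while the labels' protocols give single reads, so whether reads or fragments were counted was not settled. The build is GRCh38, and BWA 0.7.17-r1188 and MACS2 2.2.7.1 are named, per the submitters' processing notes. Starts are the deposited ones plus 1, since the lowest deposited start is 0.

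The test was edgeR 4.0.16 under R 4.3.3 (filterByExpr by group, TMM, glmQLFit and glmQLFTest), run on all peaks of a mark with its 6 libraries, Benjamini-Hochberg adjusted over all tested peaks at 0.05. SEs came from the F statistic. CPM are relative to reads in tested peaks, so a change shared by all peaks is not measured. Gene-wise sums used the library sizes and factors of the peaks. The scripts were tested on simulated data. All 8 genes are named. Their strongest peaks, start peaks and the called peaks with the largest fold changes are given per library, and pathway genes come from a list of which 33 are reported; some items are not reported here. The members and lists were chosen with earlier results of these data known. Promoter windows were matched by symbol for 5 of the 8 genes, and LYN sequence is not reported here. Exons and introns were not analysed here. Alternatives were median-of-ratios and total-count scaling, loess offsets (limma 3.58.1), no filter or a mean count of at least 50, a replicate block, a fit of only the 4 contrasted libraries, the DESeq2 1.42.0 Wald test, genes without flanks, a term for a split of the H3K27ac libraries, and leaving out each library. The libraries carry no stated molecular identifiers, so reads need not be separate molecules and intervals cover counting error and the library spread only.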

Additional observations from a re-analysis of the deposited data

How the results depend on the processing

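No result reversed. Of 40 single calls at these genes, 25 kept their direction and their side of the threshold under every alternative run, and 15 lost the call under at least one. These 40 calls are not separate results. CD79B, CD22 and BLNK each have 1 H3K4me3 peak, so their peak and gene-wise calls rest on the same counts. The comparisons with DMSO and with 150 nM share the 500 nM libraries. The DESeq2 Wald test lowered the H3K4me3 count at 500 nM against DMSO from 13 to 8 peaks and from 5 to 3 genes. Over the whole table it lowered the count from 8034 to 3479 peaks and from 9324 to 4287 genes. The other pathway genes went from 16 to 9 lower. Against 150 nM those went from 18 to 12 lower and from 5 to 3 higher, and the 6 genes to 4. The H3K27ac counts moved with the model, and the cause was not tested. Counts over the whole table moved too, also when single libraries were left out. At 500 nM against DMSO, the 4 libraries of the contrast alone took all called peaks from 499 to 2105. All called genes went from 390 to 1973, and to 1869 with the term for the split. The counts at these genes are therefore no trait of these genes alone. At 500 nM against DMSO the 0 peaks became 5 with only the 4 libraries of the contrast, and leaving out single libraries gave 0 to 3, with 3 when either 150 nM library was left out. The 0 genes became 2 with only those 4 libraries and 1 with a term for the split of the libraries on unplaced contigs, and single libraries left out gave 0 to 1. At 500 nM against 150 nM the 2 H3K27ac peaks became 0 with the 4 libraries of the contrast and 0 with DESeq2. Over all peaks 687 became 433 and 196. Single libraries left out gave 0 to 6 peaks, with 6 without 150 nM replicate 1, and 0 to 2 genes. For H3K4me3, leaving out single libraries gave 10 to 13 peaks against DMSO and 12 to 15 against 150 nM.

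The labels do not say that a replicate number pairs libraries. The difference in log2 CPM between replicate 1 and replicate 2 was taken for each tested peak within each group. Between groups these differences correlated at 0.0047 to 0.049 for H3K4me3 and 0.0026 to 0.13 for H3K27ac. With the replicate number as a block, H3K27ac at 500 nM against DMSO gave 1 peak and 1 gene in place of 0 and 0. H3K4me3 gave 13 and 15 peaks in the comparisons of 500 nM with DMSO and with 150 nM. Over the whole table the block gave 1150 H3K27ac peaks and 1216 genes, and 8274 and 8193 H3K4me3 peaks.

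Depth limits single H3K27ac peaks, with a median of 21 to 24 reads, and weak H3K4me3 peaks such as those of PLCG2 with under 50 reads.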
